A study of Mus musculus with 3 samples.

Results

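Mitochondrial ribosomal protein genes encode, in the nucleus, the proteins of the ribosome that works inside mitochondria. They were taken as all probe sets whose only gene symbol in the platform annotation starts with Mrpl or Mrps followed by a digit. This gave 76 genes and 156 probe sets, of 18193 genes in all; 47 genes belong by symbol to the large subunit (Mrpl) and 29 to the small subunit (Mrps). RNA came from dental papillae, the mesenchyme that forms dental pulp and odontoblasts, of ICR mice, a wild-type outbred stock, with no treatment in the labels. The 3 groups were embryonic day 16 (E16), embryonic day 18 (E18) and postnatal day 3 (P3). The tissue came from mandibular first molars after enzymatic separation, each group was 1 array of RNA pooled from over 20 papillae, and labelling used a two-cycle protocol. With 1 array per stage no test between stages was possible, and every difference below is one between single pooled samples.

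The mitochondrial ribosome translates the few proteins encoded by mitochondrial DNA, all of them subunits of the respiratory chain and ATP synthase. Its RNA comes from the mitochondrial genome, but its proteins are made in the cytosol and imported. Its large subunit joins amino acids and holds the exit tunnel next to the inner membrane, and its small subunit binds and decodes messenger RNA. Many of its proteins have a counterpart in the bacterial ribosome, and the others occur only in mitochondrial ribosomes. In the tooth, papilla cells divide and then turn to secreting dentin matrix.

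Promoters are shown first, for members whose values are described next. RefSeq windows on GRCm38.p6, from 250 bases before to 50 bases after a gene start, were matched for 67 of the 76 genes. The bases before the start are printed here in the direction of transcription. The first set holds 3 members whose E18 signal was over 2-fold that at E16 and that carry the ETS motif CCGGAAG, the letters bound by GABP, which is a known regulator of nuclear genes for mitochondrial proteins. Capitals mark the motif on either strand. The windows are chr11:94653541-94653790, plus strand (Mrpl27), chr14:54426659-54426908, plus strand (Mrpl52) and chr5:100798509-100798758, plus strand (Mrps18c).
Mrpl27: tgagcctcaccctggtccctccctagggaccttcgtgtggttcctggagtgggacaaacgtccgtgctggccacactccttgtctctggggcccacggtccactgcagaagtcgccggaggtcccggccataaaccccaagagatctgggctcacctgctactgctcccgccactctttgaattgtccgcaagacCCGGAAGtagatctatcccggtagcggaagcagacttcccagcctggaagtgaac
Mrpl52: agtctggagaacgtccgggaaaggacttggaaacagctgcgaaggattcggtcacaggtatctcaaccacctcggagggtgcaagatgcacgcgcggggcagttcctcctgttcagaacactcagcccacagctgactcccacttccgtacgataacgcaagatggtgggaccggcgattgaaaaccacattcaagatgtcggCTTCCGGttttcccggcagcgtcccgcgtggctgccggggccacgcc
Mrps18c: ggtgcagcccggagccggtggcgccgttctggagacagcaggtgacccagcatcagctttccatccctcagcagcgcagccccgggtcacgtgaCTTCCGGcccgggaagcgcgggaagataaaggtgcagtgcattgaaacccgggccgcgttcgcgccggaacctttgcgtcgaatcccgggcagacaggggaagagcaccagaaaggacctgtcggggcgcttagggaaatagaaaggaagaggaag

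The second set holds the 2 large subunit members with the lowest values at P3 relative to E16. Capitals mark the motif GCGCANGCG of NRF1, another known regulator of such genes, and in each window 2 overlapping matches, on opposite strands, form the capital run. The next lowest large subunit members, Mrpl50 and Mrpl18, had 0 matches of this motif in their windows. The printed windows are chr3:94443086-94443335, plus strand (Mrpl9) and chr16:84735245-84735494, minus strand (Mrpl39).
Mrpl9: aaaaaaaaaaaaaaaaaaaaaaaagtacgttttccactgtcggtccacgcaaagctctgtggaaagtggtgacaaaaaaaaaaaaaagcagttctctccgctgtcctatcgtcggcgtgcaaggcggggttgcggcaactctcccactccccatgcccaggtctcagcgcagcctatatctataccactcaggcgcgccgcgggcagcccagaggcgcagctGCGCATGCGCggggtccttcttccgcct
Mrpl39: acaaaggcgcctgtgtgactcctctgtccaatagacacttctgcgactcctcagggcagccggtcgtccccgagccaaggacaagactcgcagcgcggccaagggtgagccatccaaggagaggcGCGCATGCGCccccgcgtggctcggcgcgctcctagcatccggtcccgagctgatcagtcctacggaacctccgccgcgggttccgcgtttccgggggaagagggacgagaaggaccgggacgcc

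Values are given as recovered signals, in array units, rebuilt from the deposited ratios. A recovered signal can understate the true one, and signals of different probe sets are not comparable. The floor was 82.1, the median over all probe sets and arrays, and signals under it were raised to the floor before log2 differences were taken. A gene was measured in a comparison if its signal reached the floor on 1 or both of the arrays compared. Called higher or lower means a difference of 2-fold or more, with no test. Each gene was read from the probe set with the highest mean signal, called the brightest. On all 3 arrays 68 of 76 members reached the floor (42 of 47 large and 26 of 29 small). Mrpl54, Mrpl55 and Mrps10 lay below it on every array, Mrpl37 reached it only at E18, and Mrpl14, Mrpl20, Mrps11 and Mrps27 reached it on 2 arrays.

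**Figure D1:**
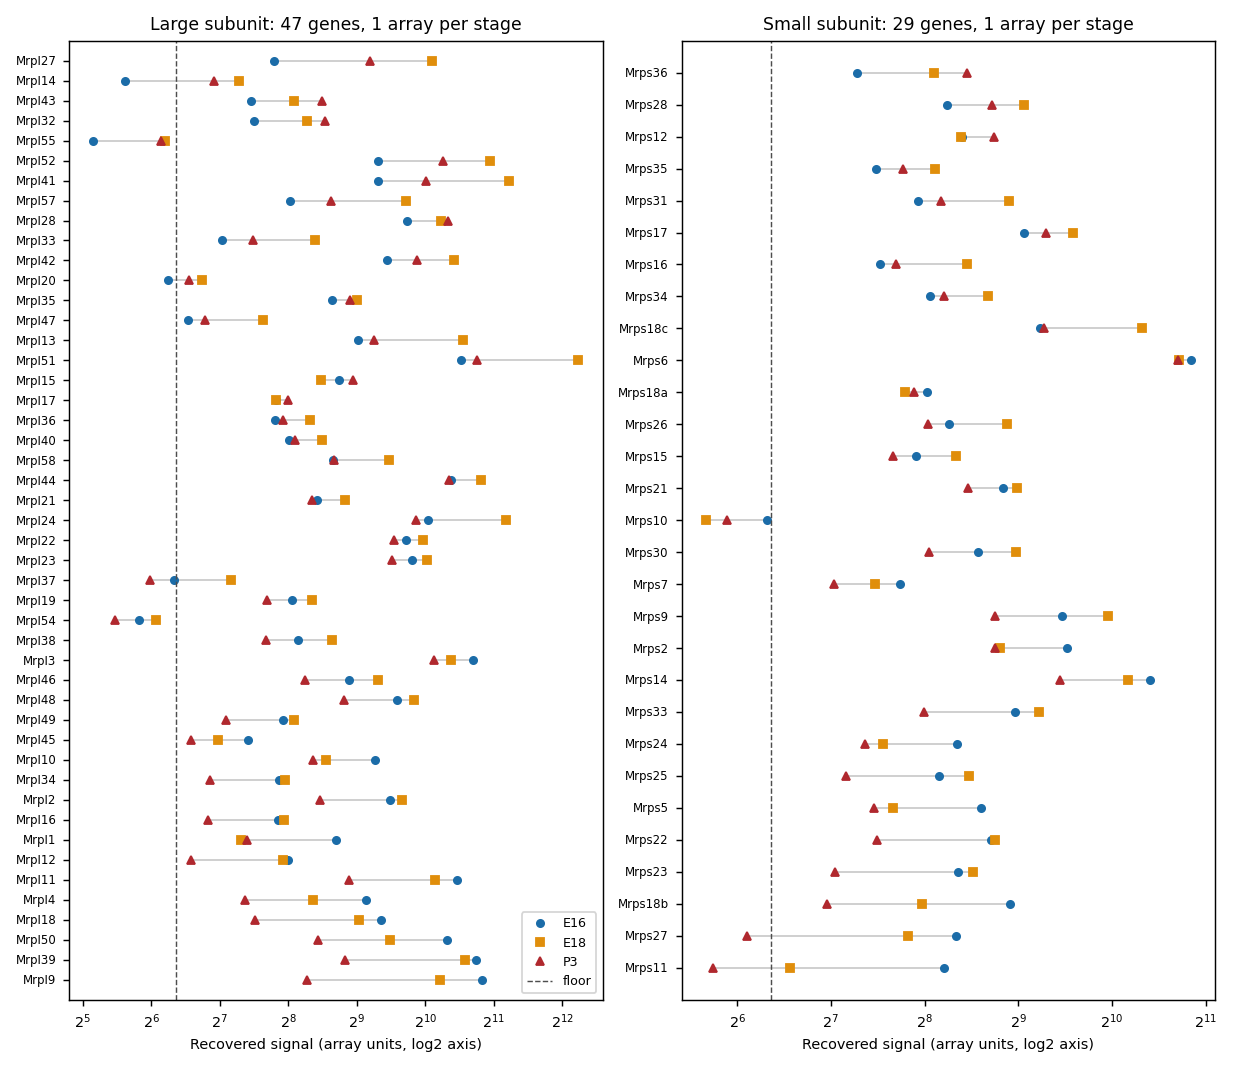
Recovered signal (log2 axis, array units) of the brightest probe set of each member at E16 (circles), E18 (squares) and P3 (triangles), large subunit left and small subunit right, ordered by the ratio of P3 to E16; the dashed line is the floor of 82.1. The E18 square is the highest of the 3 in 26 of 42 large and 16 of 26 small subunit genes that reached the floor on all arrays.

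Most members were highest at E18, with either E16 or P3 as the lowest stage. Of the 68 members that reached the floor on each array, 42 (61.8%) had their highest signal at E18, against 34.9% of 9859 genes so measured. A lowest signal at P3 was seen in 39 members (57.4%), against 47.6% of all such genes. Taken jointly, 22 members (32.4%) were highest at E18 and lowest at P3, 20 (29.4%) were highest at E18 and lowest at E16, and 17 were highest at E16 and lowest at P3. Over all such genes the first 2 orders held 20.0% and 14.9% and the last 27.6%. In the large subunit the first 2 orders held 13 genes each, and in the small subunit 9 and 7. Of 73 members measured at both steps, 45 were higher at E18 than at E16 and lower again at P3, 19 were lower at each step, 5 were higher at each step and 4 were lower and then higher. Higher then lower was thus 61.6% of members against 36.4% of 11608 genes, and lower at each step 26.0% against 25.9%. Both steps use the E18 array.

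Properties of the arrays also differed between the stages, and only some of them were highest at E18. The ratio of 3' to 5' actin signals, which tracks how complete the labelled RNA was, stood at 3.87 (E18) and 2.46 (P3) times its E16 value. That of Gapdh stood at 1.42 and 0.36 times. Spike-in controls added at hybridisation had a median of 2.17 (E18) and 1.04 (P3) times the E16 reading. The summed signal of 9 epithelial markers went from 6789 at E16 to 18707 at E18 and 3662 at P3, with 9, 8 and 7 of them at or above the floor and the keratin gene Krt5 at 2069, 4821 and 752. That of 10 macrophage markers went from 1958 to 3901 and 7626, and that of 6 erythroid markers from 1783 to 417 and 353. Such sums weigh bright probe sets more. Median log2 differences at E18 against E16 and P3 against E18 were 1.22 and -2.31 for epithelial markers. They were 0.65 and 0.64 for macrophage and -1.05 and -0.30 for erythroid markers. All 9 dental mesenchyme markers were above the floor at every stage, with a sum of 11899, 7871 and 9064, but they went in opposite directions. At E18 against E16, 6 of the 9 were called lower (Pax9, Barx1, Lhx6, Lhx8, Twist1 and Prrx1, by 2.81-fold to 4.45-fold) and Dlx2 was 8.47-fold higher, with a list median of -1.79. The sum of 7 endothelial markers was 3580, 1673 and 1784, with Pecam1 and Tie1 below the floor throughout, and that of 6 cartilage markers 1413, 1652 and 1642. Skeletal muscle markers stayed at a sum of 258 to 471, with 5 of 8 below the floor throughout. In pooled tissue, fewer cells of a type and less RNA per cell cannot be told apart. The part of these properties in the results was not tested.

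From E16 to E18, most genes of both subunits had a difference above zero, and calls of 2-fold or more came mainly from the large subunit. Of 45 large subunit genes measured, 33 were above zero difference, 9 were at least 2-fold higher (20.0%) and 1 was at least 2-fold lower. Of 28 small subunit genes, 17 were above zero, 1 was at least 2-fold higher and 1 lower. Among 12029 genes measured in this comparison, 8.1% were at least 2-fold higher and 8.13% lower. The median log2 difference was 0.39 for the large and 0.21 for the small subunit, against -0.04 over all genes. Without probe sets with the suffix _s_at, _x_at or _a_at the order of the medians turned. They became 0.18 (large) and 0.32 (small), with 24 of 39 and 13 of 19 genes above zero. Such a suffix is carried, among others, by the brightest probe sets of Mrpl9, Mrpl11, Mrpl48 and Mrps23. At a threshold of 1.5-fold, 15 of 45 large and 8 of 28 small subunit genes were higher, against 17.7% of all genes. The difference between the subunits has no test here.

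Among the large subunit genes higher at E18, Mrpl27 encodes a protein near the peptidyl transferase centre. Its signal was 223 at E16, 1093 at E18 and 586 at P3, so E18 was 4.91-fold above E16. Both later stages lay above E16, and P3 was 2.63-fold above it.

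Several mitochondria-specific proteins of the large subunit showed a similar order of stages. Mrpl41 read 635 at E16, 2387 at E18 and 1033 at P3, a 3.76-fold difference between E18 and E16; the log2 difference was 1.91, and 1.40 by a second probe set. Mrpl51 read 1473, 4810 and 1726, and E18 was 3.26-fold above E16. For Mrpl51 the choice of probe set mattered, since another one, with signals of 90.6, 94.5 and 64.9, gave a log2 difference of 0.06. Mrpl57 read 261, 846 and 394 and was 3.24-fold higher at E18, with 0.40 on the log2 scale by another probe set. Mrpl52 read 634, 1962 and 1228. It was 3.09-fold higher at E18, and 2 other probe sets gave log2 differences of 1.45 and 1.18, both past 2-fold.

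Proteins with bacterial counterparts made up the rest of the 9. Mrpl13 read 521 at E16, 1503 at E18 and 611 at P3 and was 2.89-fold higher at E18; its 3 other measured probe sets gave log2 differences of 1.35, 0.73 and 0.43. Mrpl33 read 131, 337 and 179, which is 2.57-fold. Mrpl24, a protein at the exit tunnel, read 1052, 2305 and 935, which is 2.19-fold. Mrpl47 read 93.4, 199 and 110, which is 2.13-fold, from a level just above the floor. In the last 3 genes E16 and P3 were closer to each other than either was to E18. In the small subunit Mrps18c read 601, 1281 and 618, and was 2.13-fold higher at E18. Just inside 2-fold were Mrpl42 (695, 1367 and 945, a log2 difference of 0.98), Mrps31 (245, 477 and 289, 0.96) and Mrps16 (185, 351 and 207, 0.93). Mrps16 was among the mitochondrial ribosomal proteins linked early to human disease.

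Only Mrpl1 and Mrps11 were at least 2-fold lower at E18. Mrpl1, a protein of the L1 stalk, read 413, 159 and 169 and was 2.60-fold lower at E18; another probe set gave -0.51 on the log2 scale. Mrps11, which lies on the small subunit platform, read 296, 94.4 and 53.5 and was 3.14-fold lower. Its other measured probe set went the opposite way, with signals of 70.8, 135 and 83.2 and a difference of at least 0.72 on the log2 scale, so the direction for Mrps11 depends on the probe set. Mrps5 (388, 202 and 176) and Mrps18b (482, 252 and 124) each had a log2 difference of -0.94 at this step.

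From E18 to P3 both subunits were lower, and no member was 2-fold higher. Of 45 large subunit genes, 39 were below zero difference and 16 (35.6%) were at least 2-fold lower. Of 28 small subunit genes, 25 were below zero and 8 (28.6%) were at least 2-fold lower. Among 12115 genes measured in this comparison, 11.8% were at least 2-fold lower and 4.07% higher. The medians were -0.81 (large) and -0.60 (small), against -0.15 over all genes. After quantile normalization, which brings the arrays to 1 distribution, the counts lower were 6 of 45 and 5 of 28 and the medians became -0.55 and -0.37, against 0.03 over all genes, of which 797 were then called higher and 874 lower in place of 493 and 1428.

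**Figure D2:**
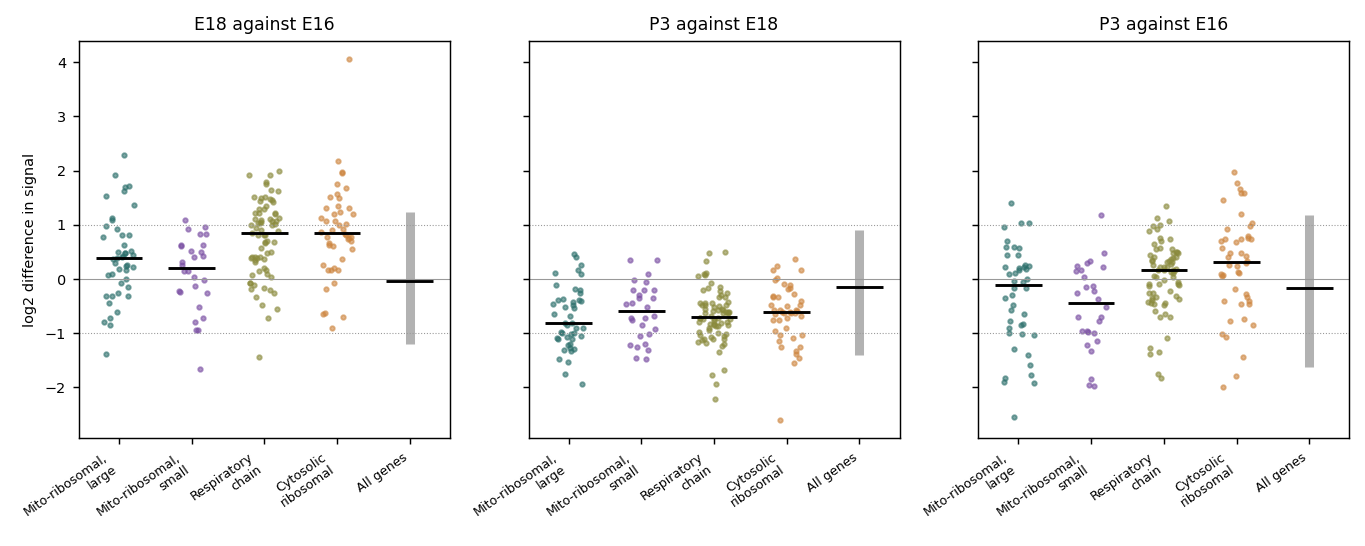
Log2 difference in signal of each measured gene (points) in 4 families for the 3 comparisons, with the family median as a black line; for all genes the grey bar spans the 5th to 95th percentile. At E18 against E16 the medians are 0.39 (large subunit), 0.21 (small subunit), 0.85 (respiratory chain) and 0.84 (cytosolic ribosomal proteins); at P3 against E18 all 4 medians lie between -0.81 and -0.60.

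The members lower at P3 than at E18 fell into those that had been higher at E18 and those that had not. Of the 10 members at least 2-fold higher at E18, 6 were then at least 2-fold lower at P3: Mrpl13, Mrpl24, Mrpl41, Mrpl51, Mrpl57 and Mrps18c. Over all genes this held for 371 of 974, and for 14 of 31 respiratory chain genes. At P3 against E18, other probe sets gave log2 differences of -0.64 (Mrpl41), -0.37 (Mrpl57) and a bound of -0.20 (Mrpl51). Those of Mrpl13 gave -0.49, -1.04 and a bound of -1.92. The other 18 of the 24 genes lower at P3 had not been called higher at E18. Some of them were, by the brightest probe set, past 2-fold at this step but not over the whole interval. Mrpl46 read 472, 637 and 302 and was 2.11-fold lower at P3 than at E18. Mrpl34 (233, 248 and 116) was 2.13-fold, Mrps33 (498, 595 and 255) 2.33-fold and Mrps9 (706, 996 and 432) 2.31-fold lower. By the brightest probe set P3 was the lowest stage in each of these 4 genes. Other probe sets gave smaller log2 differences at this step, of -0.10 for Mrpl34 and of -0.40 and -0.50 for Mrps9. In the Mrps9 probe set with -0.40 (400, 559 and 423) E16 was the lowest stage. Mrps25 read 285, 355 and 144 and was 2.48-fold lower, and another probe set, with signals of 401, 219 and 73.6, gave at least 1.41 on the log2 scale in the same direction. That other probe set was already lower at E18 than at E16 (-0.87, against 0.32 by the brightest). Over the whole interval it gave a bound of -2.29, past 2-fold. Mrpl48 read 767, 913 and 450, 2.03-fold lower, but another probe set gave a log2 difference of 0.55 upward. Mrpl4, a protein lining the exit tunnel (565, 328 and 165), lay just inside 2-fold, at 1.99-fold.

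Between E16 and P3, the comparison without the E18 array, single members differed strongly but the medians were near that of all genes for the large subunit. Of 44 large subunit genes, 10 (22.7%) were called lower and 3 higher. Of 28 small subunit genes, 6 (21.4%) were called lower and 1 higher. Over 12188 genes, 15.6% were called lower and 6.57% higher. The medians were -0.12 (large) and -0.45 (small), against -0.17 over all genes. After quantile normalization 6 large subunit genes were called higher and 8 lower, and over all genes 1227 higher and 1280 lower in place of 801 and 1902, with a median of 0.02. The sign of the large subunit median turned to 0.22 after quantile normalization and to 0.054 after centring on the median of all genes. The small subunit median stayed below zero under both, at -0.16 and -0.28.

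Of the large subunit genes lower at P3, Mrpl9 showed the greatest difference by its brightest probe set. It read 1819 at E16, 1191 at E18 and 311 at P3, which is 5.85-fold lower at P3 than at E16. A second probe set (1669, 869 and 419) was 3.99-fold lower as well, and another, dim one (114, 95.1 and 131) gave a log2 difference of 0.20. Mrpl39, a mitochondria-specific protein, read 1705, 1534 and 454 and was 3.76-fold lower; another probe set gave -1.10. Mrpl50 read 1280, 716 and 345 and was 3.71-fold lower, with -0.79 by another probe set. These 3 genes were near their E16 level or below it at E18 and lowest at P3.

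Mrpl18 and proteins of the stalk that recruits translation factors were also among them. Mrpl18, in the central protuberance, read 652, 526 and 183 and was 3.57-fold lower at P3 than at E16. Mrpl11, at the stalk base, read 1415, 1135 and 472, 2.99-fold lower; 2 other probe sets gave log2 differences of -1.52 and -0.83. Mrpl12, the stalk protein itself, read 255, 242 and 96.1 and was 2.66-fold lower. Mrpl10, which holds Mrpl12 in the stalk, read 615, 375 and 329 and had a log2 difference of -0.90, short of 2-fold. In these 4 genes, of which Mrpl10 was chosen after its values were seen, P3 was the lowest stage; nothing follows for other proteins of the same regions. Mrpl4 was 3.42-fold, Mrpl1 2.45-fold, Mrpl16 (232, 244 and 114) 2.04-fold and Mrpl2 (715, 812 and 354), a core protein, 2.02-fold lower.

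In the small subunit, Mrps27, a mitochondria-specific protein with pentatricopeptide repeats, read 323, 226 and 68.7. Its P3 value was below the floor, so P3 lay below E16 by a bound of 3.94-fold or more. Mrps23 read 328, 366 and 132 and was 2.5-fold lower, while another probe set gave a log2 difference of -0.02. Mrps22, linked to inherited cardiomyopathy, read 419, 432 and 180 and was 2.33-fold lower. Mrps5, at the messenger RNA entry, was 2.21-fold lower, but 2 other probe sets gave log2 differences of -0.31 and 0.52. Mrps11 had a bound of 3.61-fold lower from the brightest probe set, against a log2 difference of 0.02 from the other. Of these 5 genes, Mrps27 and Mrps22 have no other measured probe set, and each of the other 3 has one that gave a difference near zero or upward.

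The 3 paralogues of the bacterial S18 protein differed from each other. Mrps18b read 482, 252 and 124 and was 3.89-fold lower at P3 than at E16. Mrps18a, which sits in the large subunit in structures despite its name, read 262, 221 and 237, a log2 difference of -0.14. Mrps18c, which was higher at E18, ended at a log2 difference of 0.04. The lowest stage was P3 for Mrps18b, E18 for Mrps18a and E16 for Mrps18c.

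At P3 against E16, 4 members were called higher. Besides Mrpl27 they were Mrpl32, Mrpl43 and Mrps36. Mrpl32, which the mitochondrial m-AAA protease must cleave before it enters the ribosome, read 181, 311 and 370, a 2.04-fold difference. Mrpl43 read 177, 272 and 361, a 2.05-fold difference. Mrps36 read 156, 275 and 351 and was 2.25-fold higher; this protein is now placed in the 2-oxoglutarate dehydrogenase complex rather than in the ribosome. The last 3 genes were higher at each step. Without Mrps36, and with Mrps18a and Mrps30 moved to the large subunit where structures place them, the small subunit had 0 genes 2-fold higher and a median of -0.70.

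The other members chosen as well known, and Mrpl58, were short of 2-fold between E16 and P3. Mrpl3, at the peptidyl transferase centre, read 1651, 1329 and 1118, a log2 difference of -0.56, with -0.72 and -0.35 by 2 other probe sets. Mrpl44, related to ribonuclease III, read 1325, 1795 and 1299 (-0.03; -0.51 and -0.64 by 2 other probe sets). Mrps12, part of the decoding site, read 339, 335 and 428 (0.34). Mrps34 read 266, 409 and 296 (0.15). Mrps16 had a difference of 0.17, and Mrpl58, a peptidyl-tRNA hydrolase built into the large subunit (404, 708 and 406), one below 0.01.

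Whether a protein has a bacterial counterpart went along with some of these values, but in opposite ways in the large and small subunit over the whole interval. At E18 against E16 the 29 measured genes without a counterpart had a median of 0.44, with 23 above zero, and the 43 with one had a median of 0.18, with 26 above zero. Over all genes the median was -0.04, with 47.4% above zero. By subunit the medians without and with a counterpart were 0.50 and 0.23 (large) and 0.29 and -0.02 (small). At P3 against E18 the medians without and with a counterpart were -0.97 and -0.47, against -0.15 over all genes. At least 2-fold lower were 13 of 29 and 11 of 43, against 11.8% of all genes. After quantile normalization these counts were 6 of 29 and 5 of 43, against 7.21% of all genes, and the medians -0.72 and -0.29. By subunit the medians before it were -0.97 and -0.58 (large) and -0.97 and -0.35 (small). At P3 against E16 the medians were -0.35 and -0.25, and the second of these turned to 0.09 after quantile normalization, with the first at -0.11. The median over all genes was -0.17 before it. Here the order differed by subunit, with medians without and with a counterpart of -0.01 and -0.17 (large) and -0.74 and -0.37 (small). Mrps18a and Mrps18b were counted without a counterpart because they occupy mitochondria-specific sites, and Mrps36 was in neither class. These are counts over genes of the same arrays, with no test.

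Probe sets of the same gene are the only view of measurement error in these data. For 31 members a second probe set was measured, and at P3 against E18 it lay a median of 0.55 log2 units from the brightest one, close to the 0.49 found over all genes. At E18 against E16, 7 of the 12 members past 2-fold had another measured probe set, and for 3 of them (Mrpl13, Mrpl41 and Mrpl52) another one passed 2-fold in the same direction. At P3 against E18 this held for 5 of 13 (Mrpl9, Mrpl11, Mrpl13, Mrpl39 and Mrps25) and at P3 against E16 for 3 of 8 (Mrpl9, Mrpl11 and Mrpl39). Another probe set pointed the opposite way for 1, 2 and 3 of these members past 2-fold in the 3 comparisons. Members without a call also showed such gaps. At E18 against E16 the 6 measured probe sets of Mrpl15 ran from -0.26 to 1.18, those of Mrpl38 gave 0.50 and -1.13, and those of Mrps15 ran from a bound of -1.49 to 0.43. At P3 against E18 those of Mrpl38 gave -0.97 and 0.62.

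**Figure D3:**
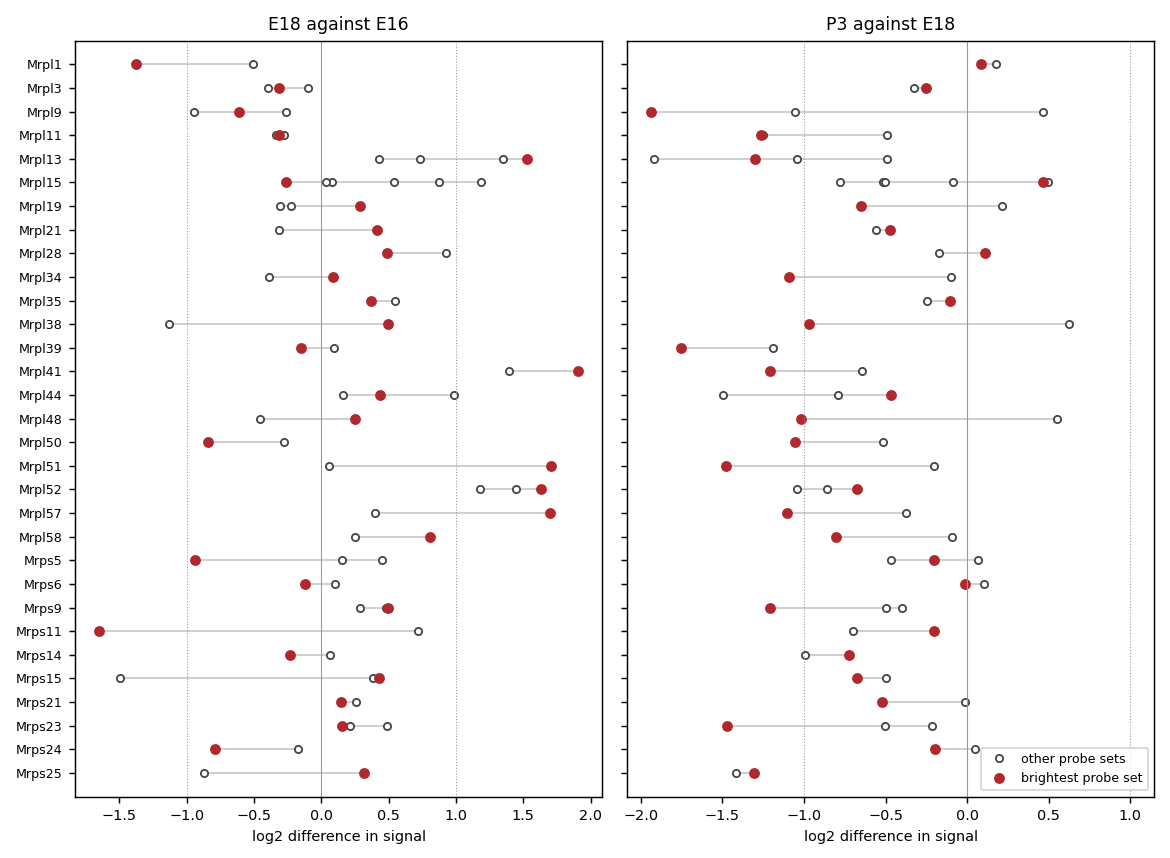
Log2 difference of each measured probe set for the members with more than 1, at E18 against E16 (left) and P3 against E18 (right); filled points are the brightest probe set, open points the others, dotted lines mark 2-fold. Among the genes that span zero are Mrps11, Mrpl38, Mrpl48 and Mrps5 on the left, and Mrpl9, Mrpl48 and Mrpl38 on the right.

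Genes that act with the mitochondrial ribosome, from lists set by function, had medians below zero at P3 against E16. Over all genes 15.6% were called lower in that comparison, with a median of -0.17, which turned to 0.02 after quantile normalization. Of 14 mitochondrial translation factors, 1 was called higher at E18 against E16 and 0 lower (median -0.21), and of 13 measured at P3 against E16, 6 (46.2%) were called lower and 0 higher (median -0.48, and -0.43 after quantile normalization). The elongation factor Tufm, which brings aminoacyl-tRNA to the ribosome, read 560, 366 and 115, a log2 difference of -2.29 over the whole interval. Oxa1l, which inserts new proteins into the inner membrane, read 390, 257 and 117 (-1.73), the elongation factor Gfm2 216, 158 and 79.4 (a bound of -1.40) and the release factor Mtrf1l 436, 372 and 180 (-1.28). All 4 were lowest at P3.

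Mitoribosome assembly factors had 4 of 21 called lower at P3 against E16 and 0 higher (median -0.34, and -0.14 after quantile normalization). Their share called lower, 19.0%, is near the 15.6% of all genes. The GTPase Gtpbp10 read 1460, 529 and 430 (-1.76), Rcc1l 274, 94.7 and 79.3 (a bound of -1.74), the methyltransferase Nsun4 444, 322 and 157 (-1.50) and the helicase Dhx30 3556, 2880 and 1675 (-1.09). Mitochondrial aminoacyl-tRNA synthetases and the related amidotransferase genes had 4 of 19 lower (21.1%, also near the 15.6% of all genes) and 0 higher (median -0.35), led by Tars2 (495, 319 and 158, -1.65), Hars2 (554, 199 and 203, -1.45), Pars2 (388, 249 and 165, -1.23) and Kars (1681, 2363 and 802, -1.07), whose gene also serves the cytosol. In these lists the drop lay at the first step for Gtpbp10 and Hars2 and at the second for Kars.

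Genes of mitochondrial DNA maintenance, transcription and RNA processing had 6 of 22 (27.3%, against 15.6% of all genes) called lower at P3 against E16 and 0 higher, with a median of -0.76 against -0.17. Pnpt1, a mitochondrial RNA nuclease, read 682, 415 and 212 (-1.69) and Hsd17b10, a subunit of mitochondrial ribonuclease P, 2425, 2204 and 824 (-1.56). Fastkd3 read 217, 75.8 and 55.1 (a bound of -1.40) and Lrpprc, which stabilises mitochondrial messenger RNAs, 425, 284 and 170 (-1.33). The Lrpprc partner Slirp went with the E18 pattern instead, at 518, 1748 and 637. Import and chaperone genes had 11 of 33 (33.3%) lower and 0 higher (median -0.65), with the protease Lonp1 at 1429, 496 and 279 (-2.36), the chaperone Hspa9 at 3269, 2971 and 819 (3.99-fold lower), Timm22 at 1044, 595 and 330 (-1.66) and Clpx at 448, 431 and 151 (-1.57). Among 12 measured regulators of mitochondrial biogenesis, 2 (16.7%) were lower and 1 (8.33%) higher, close to the 15.6% and 6.57% of all genes (median -0.50). Nrf1 read 1489, 398 and 499 (-1.58), the GABP subunit Gabpb1 200, 193 and 57.1 (a bound of -1.29), and the coactivator Ppargc1b was higher, at 127, 222 and 303 (1.25). Proteins of the mitochondrial ribosome under other symbols were 3 measured genes, Dap3 (879, 649 and 462), Ptcd3 (258, 449 and 306) and Chchd1 (543, 883 and 411). Gadd45gip1, a further one, was below the floor on each array.

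**Figure D4:**
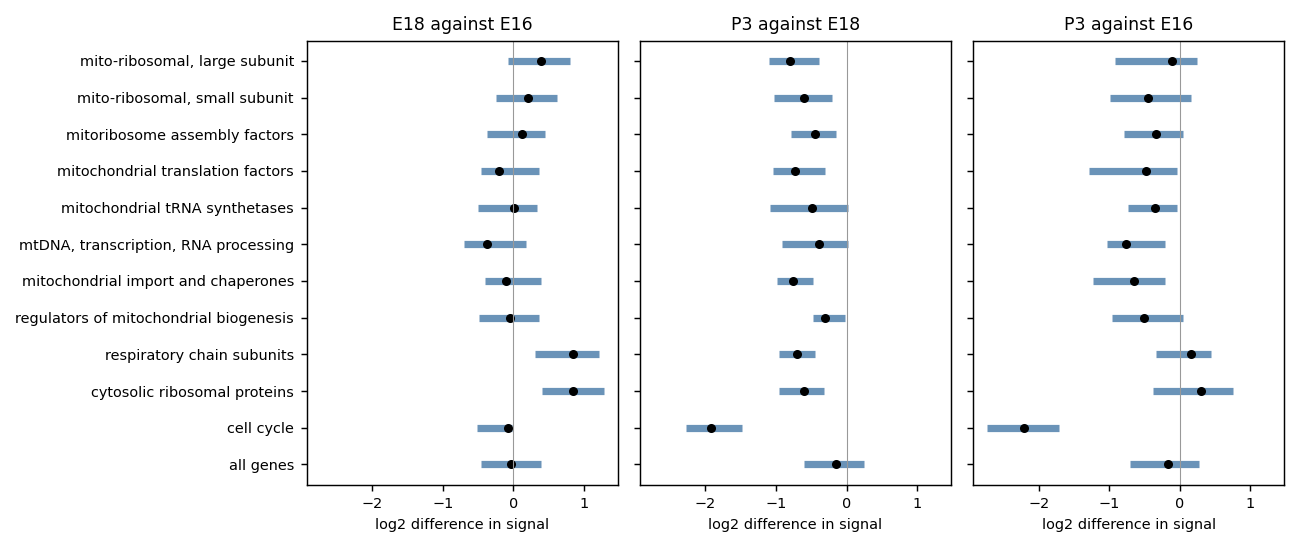
Median (point) and middle 50% of genes (bar) of the log2 difference in signal for each list and comparison. At E18 against E16 the subunit medians of 0.39 and 0.21 lie above those of the translation factors (-0.21) and import genes (-0.11); at P3 against E18 the cell cycle list lies lowest, at -1.92.

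Families of similar size give a comparison for the E18 values. Of 73 measured nuclear genes for respiratory chain subunits and ATP synthase, 31 (42.5%) were called higher at E18 against E16 and 1 lower, with a median of 0.85. Of 46 cytosolic ribosomal protein genes, 19 (41.3%) were higher and 0 lower, with a median of 0.84. The share over all genes was 8.1%. At P3 against E18 the medians were -0.70 and -0.60, with 17 of 74 (23.0%) and 11 of 45 (24.4%) called lower, against 11.8% of all genes, and 0 higher in each. After quantile normalization they were -0.28 and -0.09, with 5 of 74 and 4 of 45 genes lower. Those counts are near the 7.21% of all genes called lower in that setting. At P3 against E16 the medians of these families were 0.16 and 0.31, both on the positive side of zero. Those of the large and small mitochondrial ribosomal subunits were -0.12 and -0.45. After quantile normalization the 4 medians were 0.43, 0.68, 0.22 and -0.16, and after centring 0.33, 0.48, 0.054 and -0.28. In both settings the large subunit median was above zero, as in these families, and only the small subunit median was below it. Among 25 cell cycle genes, 21 were called lower at P3 against E18, with a median of -1.92, and 0 higher, a share of 84.0% against 11.8% of all genes. The part of dividing cells in the members' values was not tested.

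Some motifs bound by regulators of mitochondrial genes were in a larger share of the members' windows than of all windows, with no test made. The ETS motif CCGGAAG, as in Mrpl27, Mrpl52 and Mrps18c, was found on either strand in 25 of 67 members (37.3%) and in 15.0% of 14369 genes of the array with a window. The NRF1 motif GCGCANGCG, as in Mrpl9 and Mrpl39, was found in 15 (22.4%) against 11.5%, and the YY1 motif AAGATGGC in 12 (17.9%) against 4.09%. The Sp1 motif GGGCGG (50.7% against 57.5%), the NF-Y motif CCAAT (38.8% against 42.0%), the E-box CACGTG (7.46% against 10.3%) and the TATA box TATAAA (7.46% against 11.5%) had shares below those of all windows. By subunit, the ETS motif was in 14 of 41 large and 11 of 26 small subunit windows. It was in 6 of the 9 members with a window called higher at E18 (66.7%), and in 11 of the 23 called lower at P3 against E18 (47.8%). The share over genes of the array was 15.0%. The other motifs with a larger share in members did not share this split. NRF1 was in 1 of the 9 (11.1%) and 6 of the 23 (26.1%), and YY1 in 0 of the 9 and 1 of the 23 (4.35%). A match describes letters only and does not show a bound site.

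**Figure D5:**
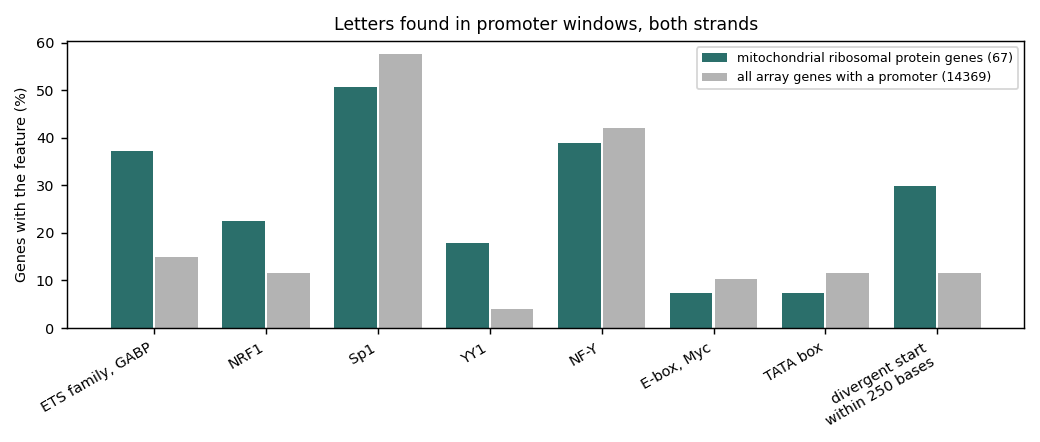
Share of genes (%) whose promoter window holds each motif on either strand, or whose start lies within 250 bases of a start on the opposite strand, for 67 members (dark bars) and 14369 genes of the array with a window (grey bars). The ETS motif is at 37.3% against 15.0% and divergent starts are at 29.9% against 11.6%.

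A position shared by many members is a divergent start, where another gene begins within 250 bases on the opposite strand and runs away from it. This was so for 20 of 67 members (29.9%), against 11.6% of 14369 genes. Neighbours that also serve mitochondrial gene expression include Mrps11 with Mrpl46, Mrps27 with the pentatricopeptide gene Ptcd2, Mrpl43 with the mitochondrial helicase gene Twnk, and Mrps12 with the mitochondrial seryl-tRNA synthetase gene Sars2. The starts of Mrps11 and Mrpl46 are 42 bases apart, and the 41 bases between them, chr7:78783090-78783130 on GRCm38.p6, are printed on the plus strand, from the Mrpl46 start to that of Mrps11.
Mrps11 and Mrpl46: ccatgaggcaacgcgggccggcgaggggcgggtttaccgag

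Some neighbours with divergent starts differed in their order of stages. Over the whole interval Mrps11 had a log2 difference with a bound of -1.85 and Mrpl46 of -0.64, and at E18 against E16 they had opposite signs by the brightest probe sets (-1.65 and 0.43). The other Mrps11 probe set gave at least 0.72 at that step, the same sign as Mrpl46, and 0.02 over the whole interval. Mrpl43 was higher at P3 than at E16 (1.03) and Twnk lower (-0.96). Mrpl27 was higher at E18 than at E16 (2.29), and its neighbour Eme1 was lower (-0.96). Mrpl40 and Hira were alike at both steps, at 0.48 and 0.64 and then -0.39 and -0.48.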

How the data were processed

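Expression was measured on 1 array per stage (E16, E18, P3). The deposited values are ratios; GCOS is named, with no version, per the submitters' processing notes, and no source used here gives the scaling. In 90.4% of 45101 probe sets the authors' middle ratio was 1, meaning that a probe set's 3 values were set relative to the middle one; the others shared 1 step per array, which gave factors of 0.7177 (E16) and 1.0802 (E18) relative to P3. Signals were recovered as the fewest whole steps that fit all 3 ratios within a relative 3e-07. The design had assumed that levels would be given. The recovery was tested on simulated data.

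Python 3.11.15, numpy 2.4.6 and pandas 2.3.3 were used. Gene names came from the platform annotation; 4 probe sets that list a member together with another gene were left out. Called means at least 2-fold. Named members are those past 2-fold in any comparison, the 5 highest and lowest per subunit at P3 against E16, those whose probe sets differ by over 1 log2 unit, and 8 well known ones; of each other list, up to 4 members past 2-fold. Others were named after their values were seen. The members and lists were chosen with earlier results of these data known. The 3 samples are not replicates, and their number limits the precision. Alternatives changed scaling, floor, probe set, subunit and threshold.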

Additional observations from a re-analysis of the deposited data

How the results depend on the processing

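No paired analysis was possible because each stage has 1 array, and for the same reason no replicate could be left out. Of 156 medians and counts recomputed, 116 stayed within 0.1 log2 units or 1.5 times, 38 moved and 2 turned sign; the causes were not tested. Dropping the floor moved none. Median scaling also moved none, but it could change little, since the array medians were already 82.1 (E16), 81.8 (E18) and 82.3 (P3). Its values are included in the 156. Values below are given for the large and then the small subunit.

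For E18 against E16, the median became 0.28 (large) with a floor of 164.1, and 0.18 and 0.32 without suffixed probe sets (_s_at, _x_at or _a_at). The count higher became 2 (small) after quantile normalization and after centring on all genes, and 15 and 8 at 1.5-fold. Of all genes, 7.94%, 8.74% and 17.7% were higher in these settings, in the same order. The count lower became 0 (small) with the higher floor, 0 and 0 with the mean of probe sets, 2 (large) without suffixed probe sets, and 5 and 5 at 1.5-fold. The shares of all genes lower in these settings were 8.08%, 5.77%, 9.36% and 19.9%, in the same order.

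For P3 against E18, the medians became -0.55 and -0.37 after quantile normalization, -0.65 (large) with the higher floor, -0.59 (large) with the mean of probe sets, -0.53 and -0.50 without suffixed probe sets, and -0.66 and -0.45 after centring, an alternative chosen after seeing the data. The count lower became 6 and 5 after quantile normalization, 9 (large) with the mean of probe sets, 4 (small) without suffixed probe sets, 26 and 14 at 1.5-fold, and 10 (large) after centring. The shares of all genes lower in these settings were 7.21%, 8.53%, 9.80%, 25.7% and 8.68%, in the same order. Mrpl48 turned to 0.55 without suffixed probe sets.

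For P3 against E16, the large subunit median turned to 0.22 after quantile normalization and to 0.054 after centring, and the small subunit median became -0.16, -0.30 with the mean of probe sets, -0.22 without suffixed probe sets, -0.70 with subunits by structure and -0.28 after centring. The count higher became 6 (large) after quantile normalization, 0 (small) by structure and 7 (large) at 1.5-fold, and the count lower 16 and 13 at 1.5-fold. Over 385 recomputed differences of members past 2-fold, 325 stayed past it in the same direction, 59 fell short of it and 1 turned sign. Of the 325, 56 came from median scaling. Signals near the floor limit what can be seen of dim members.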
